A study of Homo sapiens with 9 samples.

Results

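The transcriptome of H1299 cells given 0.1 mM melatonin was compared with that of H1299 cells given siCLOCK, a small interfering RNA against the clock gene CLOCK. These groups make up 6 of the 9 libraries of the study, 3 per treatment. The other 3 libraries are controls kept in serum free medium and serve here as a reference level. H1299 is a human cell line from a lymph node metastasis of a non-small cell lung cancer. The labels name no non-targeting siRNA, no vehicle for melatonin and no treatment time, and do not say whether the treated cells were also kept without serum. They call the 3 samples of a group independent but do not name separate cultures, so each p-value reflects nothing but the variation among these samples, which may be technical. Total RNA was sequenced as paired 150-base reads, and counts regardless of strand were compared for all genes, with attention to genes for which the treatments differed in direction or in size. Of 58721 annotated genes, 16441 passed the filter on low counts.

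The circadian clock is a transcriptional loop. CLOCK pairs with ARNTL (BMAL1) and drives genes through E-box elements, among them its own repressors of the PER and CRY families and the nuclear receptors NR1D1 and NR1D2, which repress ARNTL. Melatonin is the pineal hormone of darkness; it acts through the membrane receptors MTNR1A and MTNR1B and, at high concentration, has been used as an antioxidant and as a growth inhibitor of tumour cells in culture. Clock factors have also been linked to cell division through control of cell-cycle genes.

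CLOCK (ENSG00000134852.14; GRCh38 chromosome 4, 55427903 to 55547138, minus strand), the target of the siRNA, was uneven within the siCLOCK group. It stood at 20.9, 32.0 and 38.1 CPM (a gene's counts relative to the library total, scaled by the trimmed mean of M-values, TMM) in siCLOCK replicates 1, 2 and 3, and at 40.9, 41.6 and 39.0 CPM in the melatonin libraries. The controls held 39.0, 38.6 and 44.4 CPM. All melatonin libraries thus lay above all siCLOCK libraries, but the library labelled siCLOCK replicate 3 lay within 1 CPM of the lowest melatonin library. The log2 difference of melatonin from siCLOCK was 0.41 (standard error, SE, 0.14; adjusted p = 0.0422 by edgeR's quasi-likelihood test with Benjamini-Hochberg adjustment, the test behind every adjusted p given here unless another is named). A two-sided exact permutation test of the 6 libraries gave p = 0.1, and no smaller value is possible with 3 in each group. Against siCLOCK replicates 1 and 2 alone the difference was 0.61 (SE 0.12, adjusted p = 7.2e-04). Against the library labelled siCLOCK replicate 3 alone it was 0.09 (SE 0.14, adjusted p = 0.801). By CLOCK, that library does not show the reduction of its label, so the counts of each gene list below, and many single genes, are also given against it alone.

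**Figure D1:**
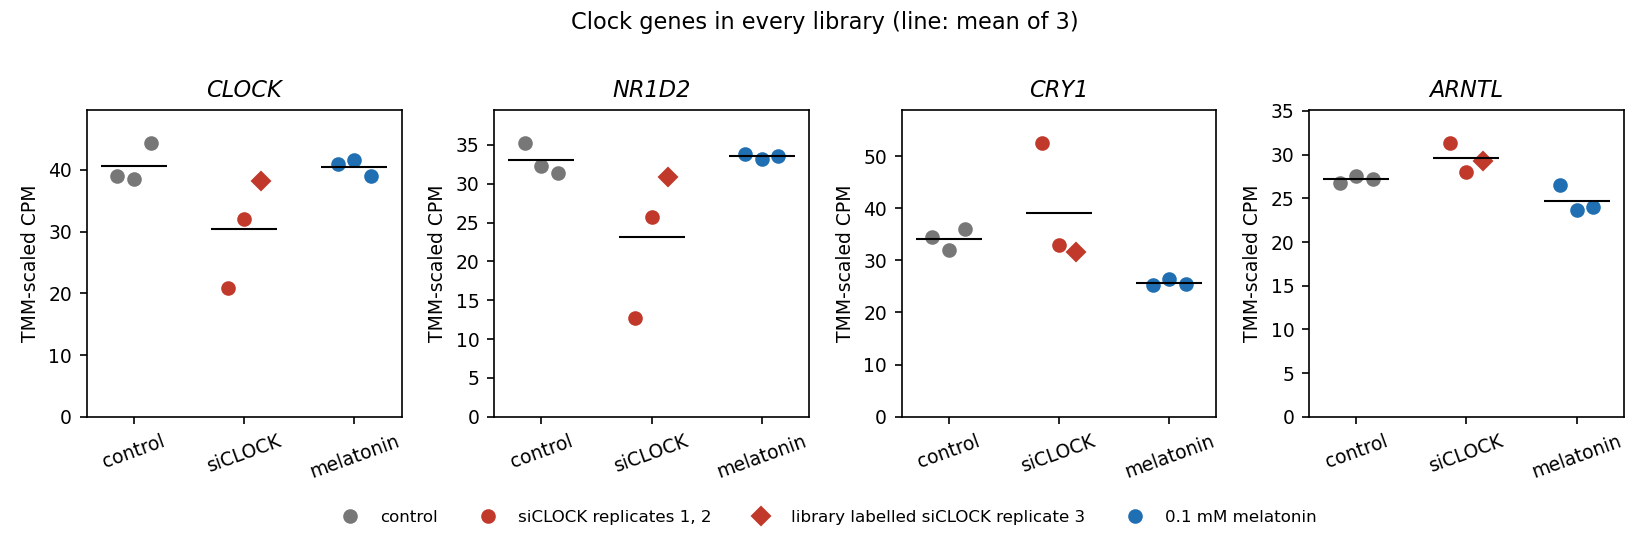
TMM-scaled CPM (vertical axes, from 0) of CLOCK, NR1D2, CRY1 and ARNTL in each of the 9 libraries by group; points are libraries, black lines are means of 3 and the diamond is the library labelled siCLOCK replicate 3. CLOCK and NR1D2 are lowest in siCLOCK replicate 1 (20.9 and 12.8 CPM), and the diamond lies closer to the melatonin points for both.

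The library labelled siCLOCK replicate 3 also shared technical features with the melatonin libraries. Gene counts per library ran from 15384539 to 19192962. Unmapped reads made up 2.24% to 2.34% of all reads in that library and the 3 melatonin libraries, against 1.22% to 1.36% in the controls and siCLOCK replicates 1 and 2, and processed pseudogenes took 0.314% to 0.324% against 0.163% to 0.172% of gene counts. The labels name no batch. The libraries were divided into 2 sets at 1.8% unmapped reads; within the second set, melatonin can be compared only with the library labelled siCLOCK replicate 3, which is what a model with a term for the set does. Comparisons of melatonin with siCLOCK replicates 1 and 2 and with the controls cross the sets, and there melatonin and the set cannot be told apart. This holds for every melatonin level given relative to control below. In the control libraries of this line the structural genes VIM and KRT18 held at least 1726 and 247 CPM. Summed markers of leukocytes (6 genes) and erythroid cells (5 genes) stayed at or below 0.477 CPM in every library, those of fibroblasts, endothelium and lung epithelium at or below 5.37 CPM. Neuroendocrine markers summed to 8.82 to 12.4 CPM.

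Melatonin and siCLOCK libraries differed at many genes. Of 16441 genes, 1221 were higher (7.43%) and 1655 lower (10.1%) in melatonin, 2876 in all (17.5%), while 5144 had an unadjusted p under 0.05. Most differences were small: 86 higher and 89 lower genes differed by at least 1 on the log2 scale, and the median log2 difference over all genes was 0.0025. The 3 melatonin libraries lay all above the 3 siCLOCK libraries at 2754 genes (16.8%) and all below at 2861 (17.4%); among the called genes this held for 1184 of the higher and 1598 of the lower. Against the library labelled siCLOCK replicate 3 alone, 328 genes were higher (2%) and 633 lower (3.85%), 961 in all (5.85%). Of the 1221 higher genes 275 were called again there, and of the 1655 lower genes 578; that library and the melatonin libraries are part of both comparisons. The comparison with that library has 1 siCLOCK library and a larger median SE (0.133 against 0.101). Against siCLOCK replicates 1 and 2 alone, 1699 genes were higher (10.2%) and 2159 lower (12.9%), 3858 in all (23.1%), of 16706 tested. Leaving out any 1 melatonin library lowered the calls to between 619 and 654 higher and between 1031 and 1061 lower.

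Genes of the G2/M transition and mitosis were lower in melatonin: 37 of 39 measured members fell and none rose, with a median log2 difference of -0.55 beside 0.0025 over all genes. Against the library labelled siCLOCK replicate 3, 35 of the 39 were lower and the median was -0.59. Relative to the control mean, the list's median was -0.70, -0.72 and -0.73 in the melatonin libraries, and -0.17, -0.21 and -0.11 in the siCLOCK libraries. Both treatments thus sat below control, melatonin farther, and the groups did not overlap. The controls and the melatonin libraries lie in different technical sets, so melatonin's distance from control cannot be told apart from the set. These are bulk RNA samples, in which fewer cells in a phase and less RNA per cell cannot be told apart. The list, like all lists here, was chosen with earlier results of these data known. Counts called in a list against all siCLOCK libraries are to be read beside the 17.5% called over all genes. Counts against the library labelled siCLOCK replicate 3 are to be read beside the lower share called there over all genes, given above. Several lists below lie near or not far above that share. Among them are the clock repressor, cytokine, interferon, cholesterol, respiratory chain, tRNA synthetase, and epithelial and mesenchymal lists. Their counts are no result about the list as a whole.

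UBE2C, which helps tag mitotic cyclins for destruction, stood at 193, 178 and 173 CPM in siCLOCK and 104, 104 and 102 CPM in melatonin. Its log2 difference was -0.81 (SE 0.06, adjusted p = 2.56e-07) and -0.74 against the library labelled siCLOCK replicate 3 (adjusted p = 6.87e-06). Every siCLOCK library lay far above every melatonin library. MYBL2, a transcription factor of the late cell cycle, held 236, 213 and 208 CPM in siCLOCK and 127, 125 and 130 CPM in melatonin (-0.78, SE 0.07, adjusted p = 1.34e-06). KIF20A, a kinesin of cytokinesis, held 191, 179 and 190 CPM against 121, 115 and 118 CPM (-0.66, SE 0.06, adjusted p = 2.03e-06). LMNB1, which encodes lamin B1 of the nuclear envelope, fell by 0.62 on the log2 scale, from 174 to 181 CPM in siCLOCK to 114 to 117 CPM in melatonin. These 4 genes were also called lower against the library labelled siCLOCK replicate 3.

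A short element was common in the promoters of this list. A promoter here is the RefSeq stretch from 250 bases before to 50 bases after a gene's start. The cell-cycle genes homology region (CHR), the letters TTTGAA on either strand, bound by the DREAM and MYBL2-containing complexes, was found in 20 of the 33 G2/M promoters matched by symbol (60.6%), in 180 of 1262 promoters of all genes lower in melatonin (14.3%), in 78 of 882 of those higher (8.84%) and in 1096 of the 11565 matched among all genes tested (9.48%). A match is a description of the letters and not a binding site. The 3 list members with the largest fall whose promoter holds the element are shown, 5′ to 3′ on the gene's strand (RefSeq on GRCh38.p14), with the element or its reverse complement in capitals.
CDC20 (activator of the anaphase-promoting complex; chr1:43358731-43359030, plus strand): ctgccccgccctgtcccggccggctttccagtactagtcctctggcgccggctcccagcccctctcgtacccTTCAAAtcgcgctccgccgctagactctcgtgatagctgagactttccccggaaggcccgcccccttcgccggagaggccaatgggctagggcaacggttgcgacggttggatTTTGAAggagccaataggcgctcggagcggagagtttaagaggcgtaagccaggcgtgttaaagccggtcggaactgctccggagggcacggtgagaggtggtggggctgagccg
CENPA (centromeric histone H3 variant; chr2:26785806-26786105, plus strand): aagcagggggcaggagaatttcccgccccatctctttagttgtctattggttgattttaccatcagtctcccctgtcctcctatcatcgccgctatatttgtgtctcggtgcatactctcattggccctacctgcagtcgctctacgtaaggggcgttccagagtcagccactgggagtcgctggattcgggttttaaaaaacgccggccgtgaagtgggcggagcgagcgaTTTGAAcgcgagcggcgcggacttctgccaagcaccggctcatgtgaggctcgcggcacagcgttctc
PLK1 (mitotic kinase; chr16:23678639-23678938, plus strand): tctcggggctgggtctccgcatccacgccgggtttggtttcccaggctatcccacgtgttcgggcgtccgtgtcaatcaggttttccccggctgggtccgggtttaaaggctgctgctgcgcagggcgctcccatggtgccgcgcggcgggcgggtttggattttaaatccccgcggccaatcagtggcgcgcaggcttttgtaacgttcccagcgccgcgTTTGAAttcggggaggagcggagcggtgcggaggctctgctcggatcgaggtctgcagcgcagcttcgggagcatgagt

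The CHR starts 65 bases before the gene start in CDC20, which also has its reverse complement 178 bases before, 18 bases before it in CENPA and 29 bases before it in PLK1. CENPA stood at 39.2, 38.4 and 41.6 CPM in siCLOCK and 24.3, 25.7 and 26.3 CPM in melatonin (log2 difference -0.64, SE 0.07, adjusted p = 1.26e-05). PLK1 stood at 146, 149 and 144 CPM in siCLOCK and 88.9, 97.1 and 95.7 CPM in melatonin (-0.64, SE 0.07, adjusted p = 4.32e-06). The groups did not overlap for either gene, and in both the library labelled siCLOCK replicate 3 lay with the other siCLOCK libraries.

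Genes of the G1/S transition and DNA replication were lower in melatonin as well. Of 43 measured members 39 fell and none rose, with a median log2 difference of -0.44; against the library labelled siCLOCK replicate 3, 29 fell with a median of -0.43. The cyclins CCNE1, CCNE2 and CCND3 and the replication factor GINS3 were the 4 members not called. Relative to the control mean the list's median was -0.57, -0.49 and -0.49 in melatonin and 0.02, -0.12 and -0.11 in siCLOCK, so in this list the siCLOCK libraries stayed close to control. POLA1, the catalytic subunit of DNA polymerase alpha, held 105, 104 and 106 CPM in siCLOCK and 68.3, 70.0 and 72.7 CPM in melatonin (-0.58, SE 0.06, adjusted p = 6.14e-06). MCM7, a subunit of the replicative helicase, held 742, 650 and 623 CPM against 414, 451 and 461 CPM (-0.60, SE 0.07, adjusted p = 1.51e-05). For MCM5, another helicase subunit, the siCLOCK libraries were spread, at 168, 144 and 121 CPM, with the library labelled siCLOCK replicate 3 lowest; melatonin stood at 80.6, 84.8 and 89.8 CPM, and the difference was -0.76 (adjusted p = 1.95e-05) against all 3 and -0.50 (adjusted p = 0.00199) against that library. UHRF1, which helps copy DNA methylation after replication, was low in both treatments, with 97.3 to 103 CPM in control, 75.4 to 86.4 CPM in siCLOCK and 51.5 to 58.6 CPM in melatonin (-0.54, SE 0.07, adjusted p = 5.09e-05).

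The E2F element is typical of G1/S promoters. The letters TTTGGCGC, TTTCCCGC, TTTCGCGC or TTTGCCGC, on either strand, occurred in 21 of the 36 G1/S promoters matched (58.3%), in 118 of 1262 promoters of genes lower in melatonin (9.35%), in 31 of 882 of genes higher (3.51%) and in 613 of 11565 of all tested genes matched (5.3%). The 2 members with the largest fall whose promoter holds it are shown in the same way, with the element in capitals.
POLA2 (accessory subunit of DNA polymerase alpha; chr11:65261712-65262011, plus strand): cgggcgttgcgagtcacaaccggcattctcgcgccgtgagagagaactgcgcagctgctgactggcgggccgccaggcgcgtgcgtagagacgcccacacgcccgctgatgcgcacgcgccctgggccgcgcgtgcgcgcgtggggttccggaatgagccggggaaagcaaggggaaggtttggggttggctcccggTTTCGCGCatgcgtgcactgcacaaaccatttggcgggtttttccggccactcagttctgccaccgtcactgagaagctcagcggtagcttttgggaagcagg
E2F2 (E2F transcription factor; chr1:23531184-23531483, minus strand): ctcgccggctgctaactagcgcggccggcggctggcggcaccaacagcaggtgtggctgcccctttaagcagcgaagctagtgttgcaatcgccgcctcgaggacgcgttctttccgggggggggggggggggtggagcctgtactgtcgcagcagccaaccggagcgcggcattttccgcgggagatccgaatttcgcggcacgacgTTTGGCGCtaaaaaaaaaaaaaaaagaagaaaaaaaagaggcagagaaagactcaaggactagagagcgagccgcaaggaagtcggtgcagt

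The element starts 53 bases before the gene start in POLA2 and 42 bases before it in E2F2. E2F2 itself stood at 34.1, 30.0 and 31.5 CPM in siCLOCK and 19.5, 18.8 and 21.3 CPM in melatonin (log2 difference -0.68, SE 0.09, adjusted p = 3.49e-05), beside 35.6 to 41.5 CPM in control. The E2F2 and POLA2 groups did not overlap.

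Most measured genes of a DNA repair list were lower in melatonin too. Of 12 measured genes of homologous recombination and the Fanconi pathway 9 fell and none rose (median -0.37), and 10 were lower against the library labelled siCLOCK replicate 3 (median -0.42). FANCD2, the ubiquitinated core of the Fanconi response, held 58.0, 54.8 and 54.0 CPM in siCLOCK and 35.4, 37.6 and 35.6 CPM in melatonin (-0.62, SE 0.07, adjusted p = 8.5e-06). No siCLOCK library came near the melatonin range for this gene. Among 7 CDK inhibitor genes, which encode brakes of the cycle, 3 were lower in melatonin: CDKN2A (-0.35, adjusted p = 0.00148), CDKN1A (-0.34, adjusted p = 0.00425) and CDKN2D (-0.44, adjusted p = 0.0058). CDKN1A, which encodes p21, stood at 111, 110 and 93.6 CPM in siCLOCK and 83.8, 86.3 and 78.0 CPM in melatonin, the latter within 82.0 to 91.3 CPM of control apart from replicate 3. None of the 7 was called against the library labelled siCLOCK replicate 3.

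The histone genes that were called went the other way. Of 10 measured genes of replication-dependent histones 6 rose in melatonin and none fell (median log2 difference 0.48), and 5 were higher against the library labelled siCLOCK replicate 3. HIST1H2BD held 18.7, 14.3 and 15.0 CPM in siCLOCK and 34.7, 32.9 and 36.2 CPM in melatonin (1.11, SE 0.11, adjusted p = 2.78e-06), and HIST1H2AC 30.8, 30.2 and 25.4 CPM against 54.8, 59.7 and 57.7 CPM (0.997, SE 0.09, adjusted p = 2.19e-06). Every siCLOCK library lay near control for both (14.3 to 18.4 and 27.1 to 34.6 CPM). HIST2H2BE (0.71), HIST1H4H (0.59), HIST1H3H (0.51) and HIST1H2AG (0.44) were the other 4. Histone copies are near-identical and can share reads, so single members are uncertain. Another 4 listed members had too few counts to be tested. HIST1H4C had 1 to 8 counts per library, HIST1H1E 0 to 5, HIST2H2AA3 0 to 11 and HIST1H2AM 0 to 1. The rise is thus shown for the measured members alone and not for replication-dependent histones as a class.

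**Figure D2:**
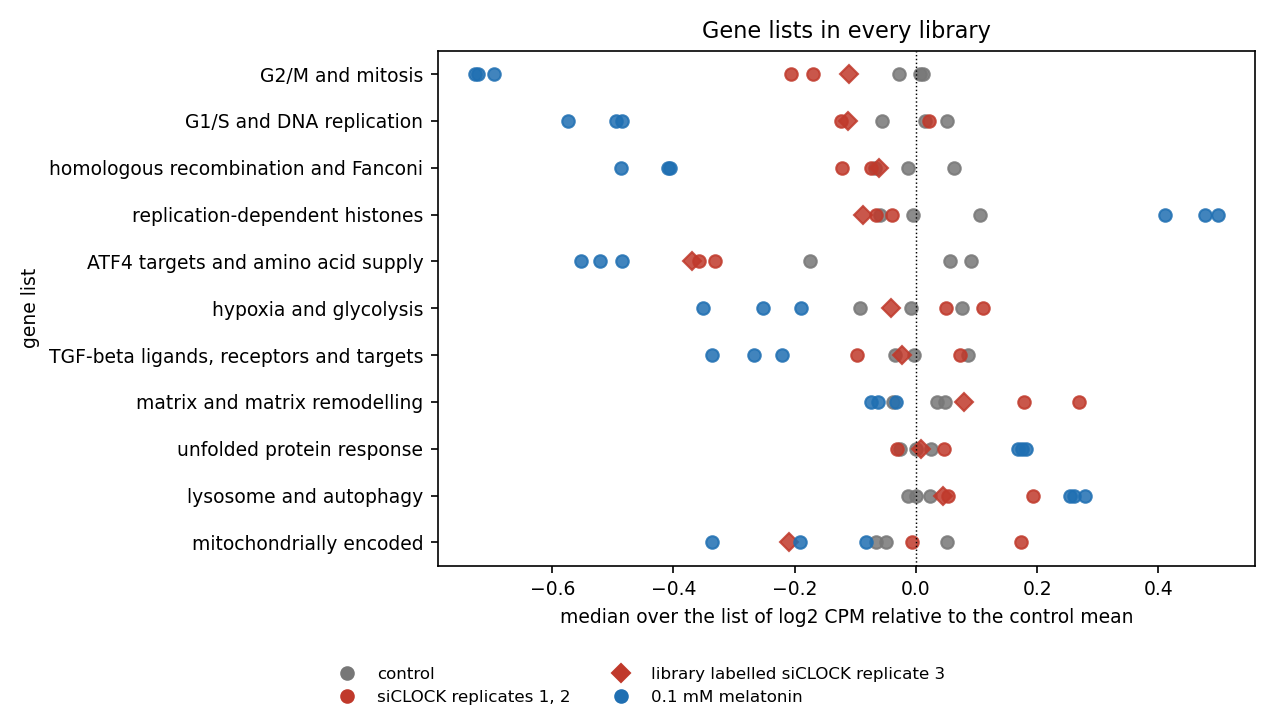
Median over each gene list of log2 CPM relative to the control mean (horizontal axis, 0.1 CPM added before the log), 1 point per library; the diamond is the library labelled siCLOCK replicate 3. The melatonin points of the G2/M list lie between -0.73 and -0.70 and all siCLOCK points of that list between -0.21 and -0.11, while in the mitochondrially encoded list the diamond lies among the melatonin points.

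Among the largest rises in melatonin were the ID genes, whose products bind basic helix-loop-helix factors and keep them off DNA. ID2 stood at 29.9, 29.3 and 27.3 CPM in siCLOCK and 60.7, 64.9 and 67.2 CPM in melatonin (log2 difference 1.16, SE 0.07, adjusted p = 4.5e-08). ID3 stood at 131, 111 and 94.8 CPM against 204, 234 and 250 CPM (1.03, SE 0.10, adjusted p = 3.01e-06), with the library labelled siCLOCK replicate 3 at the control level of 81.5 to 101 CPM and siCLOCK replicates 1 and 2 above it. ID1 rose by 0.50 (adjusted p = 3.31e-04) and ID4, at 2.06 to 2.26 CPM against 3.59 to 3.93 CPM, by 0.80 (adjusted p = 0.00219). Of 11 measured ID and bone morphogenetic protein (BMP) feedback genes 5 rose, the fifth being the inhibitory SMAD6 (adjusted p = 0.0513 with strand-specific counts), and 1 fell: NOG, a secreted BMP antagonist (-0.43, SE 0.14, adjusted p = 0.0337). Against the library labelled siCLOCK replicate 3, ID1, ID2 and ID3 were called again, while ID4 (0.77, adjusted p = 0.0549), SMAD6 (0.48, adjusted p = 0.0854) and NOG (-0.38, adjusted p = 0.266) did not pass. The median of the 11 was 0.06.

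TPPP, which promotes tubulin polymerisation, had the largest log2 difference among the named rises. It stood at 1.51, 2.36 and 2.52 CPM in siCLOCK, 2.69 to 3.23 CPM in control and 4.54, 5.89 and 4.795 CPM in melatonin (1.25, SE 0.19, adjusted p = 1.39e-04). It overlaps CEP72, and strand-specific counts gave 0.84 (adjusted p = 0.007). OLFM1, a secreted glycoprotein of neural tissue, held 22.8, 28.6 and 24.6 CPM against 42.7, 47.4 and 44.3 CPM (0.83, SE 0.09, adjusted p = 4.53e-06). DNAH1, an axonemal dynein heavy chain, held 10.1, 11.3 and 9.29 CPM against 15.0, 18.5 and 19.7 CPM (0.80, adjusted p = 8.37e-05). NR4A2, an orphan nuclear receptor of the immediate early class, held 15.9, 17.9 and 16.2 CPM against 28.9, 29.8 and 26.3 CPM (0.77, adjusted p = 2.08e-05). Against the library labelled siCLOCK replicate 3 the values were 1.02 for TPPP, 0.87 for OLFM1, 0.94 for DNAH1 and 0.81 for NR4A2. The rule that chose the rises named here required this sign, so the direction against that library is no separate result. AKAP3, an anchoring protein of protein kinase A (0.81), and CNFN, a cornified envelope gene (0.74), were also higher in both comparisons, while PTPRN (0.83) and BORCS7 (0.78) did not pass against that library alone (0.84 with adjusted p = 0.0742, and 0.47 with adjusted p = 0.183).

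**Figure D3:**
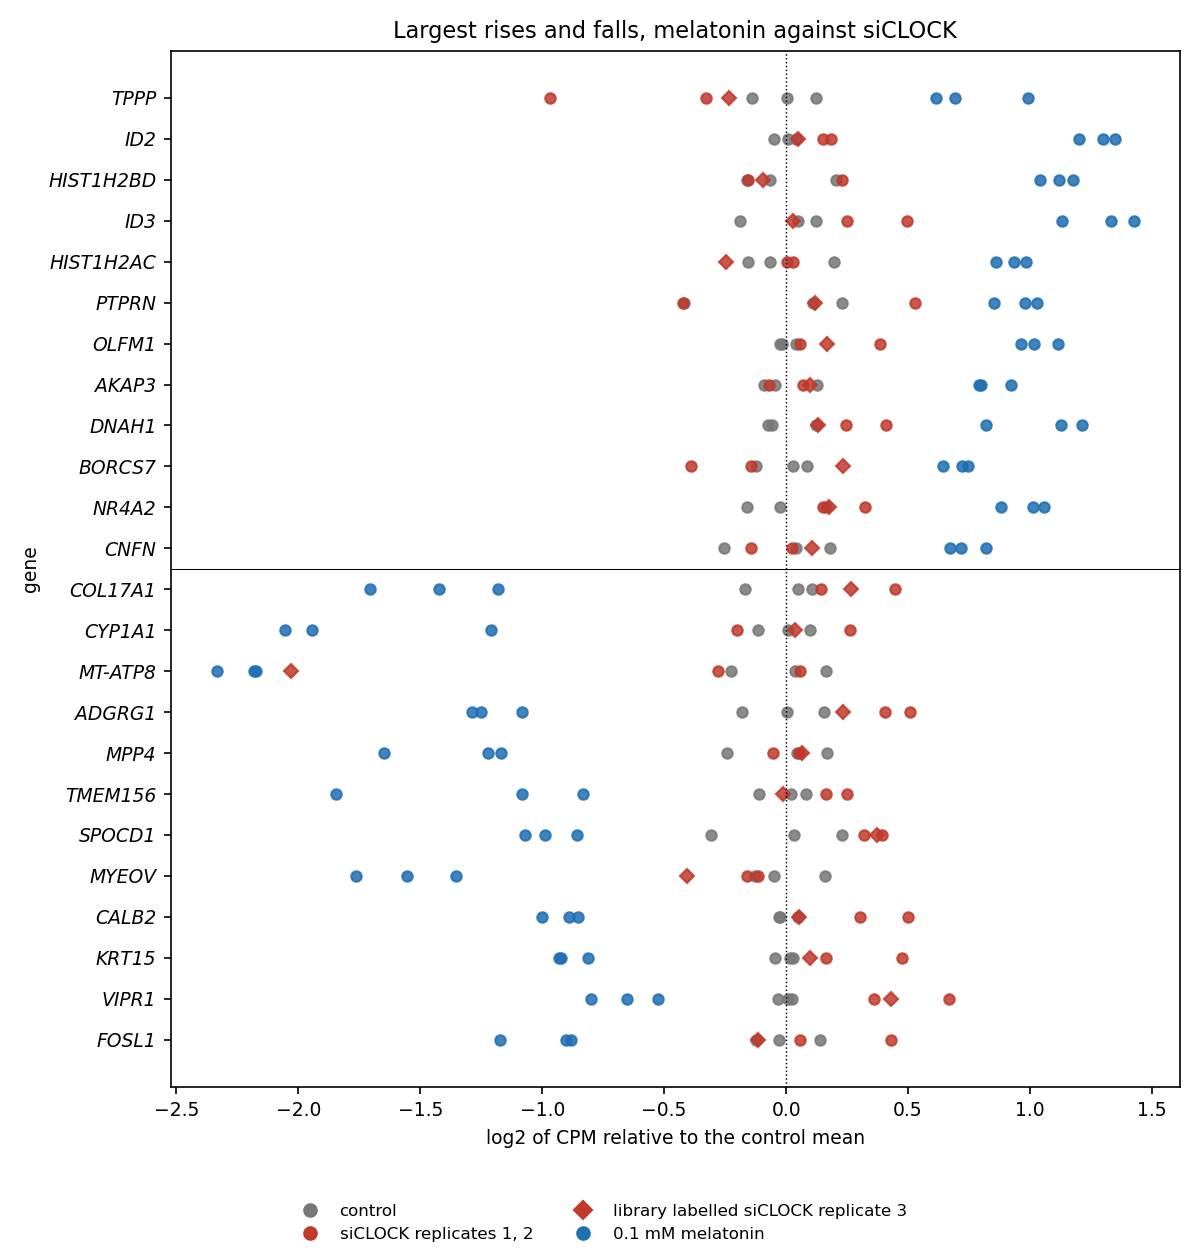
log2 of CPM relative to the control mean (horizontal axis) for the 12 largest rises (top) and 12 largest falls (bottom) among protein-coding genes, 1 point per library; the diamond is the library labelled siCLOCK replicate 3. The genes were chosen so that the 3 melatonin points lie on 1 side of the 3 siCLOCK points; in MT-ATP8 the diamond (2.41 CPM) lies with the melatonin points (1.95 to 2.18 CPM).

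The largest falls included CYP1A1, a cytochrome P450 under control of the aryl hydrocarbon receptor (AhR) that also takes part in melatonin breakdown. CYP1A1 stood at 6.55, 9.03 and 7.71 CPM in siCLOCK and 1.95, 3.25 and 1.81 CPM in melatonin (log2 difference -1.71, SE 0.19, adjusted p = 7.08e-06). The siCLOCK libraries lay around the 6.96 to 8.07 CPM of control. TIPARP, an AhR-induced ADP-ribosyltransferase, held 77.6, 84.7 and 87.6 CPM against 59.6, 51.6 and 52.4 CPM (-0.61, SE 0.08, adjusted p = 2.86e-05), with control at 68.1 to 78.6 CPM, a range that takes in siCLOCK replicate 1. CYP1B1 held 10.2, 13.5 and 13.2 CPM against 8.83, 7.80 and 8.21 CPM (-0.58, SE 0.12, adjusted p = 0.00212). These were the 3 members called of 7 measured AhR genes, all lower and all called again against the library labelled siCLOCK replicate 3, while the list's median was 0.04. The core AhR response element, the letters GCGTG on either strand, is short and common: 5 of 6 matched promoters of the list hold it, as do 5853 of 11565 of all tested genes matched (50.6%). The CYP1A1 promoter is shown because this gene had the largest fall of the list; the element, in capitals, starts 57 bases before the gene start.
CYP1A1 (chr15:74725479-74725778, minus strand): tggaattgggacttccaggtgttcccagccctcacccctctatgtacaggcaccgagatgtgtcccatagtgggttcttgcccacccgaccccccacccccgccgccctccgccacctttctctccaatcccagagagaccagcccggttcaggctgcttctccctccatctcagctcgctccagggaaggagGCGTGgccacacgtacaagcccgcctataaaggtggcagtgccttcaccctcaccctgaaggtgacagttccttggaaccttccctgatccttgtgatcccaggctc

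FOSL1, a subunit of the AP-1 transcription factor, was the most changed of 18 immediate early factors. It stood at 639, 494 and 438 CPM in siCLOCK, 436 to 522 CPM in control and 210, 254 and 258 CPM in melatonin (log2 difference -1.12, SE 0.11, adjusted p = 2.94e-06; -0.86 against the library labelled siCLOCK replicate 3, adjusted p = 8.15e-05). KLF6 (-0.61), KLF4 (-0.42) and JUN (-0.34) fell as well, and NR4A2 and NR4A3 rose (0.77 and 0.78), so that the list had members called in both directions and a median of -0.13. Against the library labelled siCLOCK replicate 3 the balance turned, with 3 called higher (NR4A2, NR4A3 and JUNB), 2 called lower (FOSL1 and KLF6) and a median of 0.01; KLF4 (-0.25, adjusted p = 0.152) and JUN (-0.16, adjusted p = 0.494) did not pass there. Of 13 ERK feedback genes 3 fell, PHLDA1 (-0.46), ETV4 (-0.64) and ETV5 (-0.25, adjusted p = 0.0517 with strand-specific counts), while DUSP6, a phosphatase that switches ERK off, rose from 56.2 to 62.6 CPM in siCLOCK to 71.2 to 77.1 CPM in melatonin (0.32, SE 0.07, adjusted p = 0.00416). DUSP6 stood above control (47.3 to 53.0 CPM) in every library of both treatments. PHLDA1, ETV4 and DUSP6 were called again against the library labelled siCLOCK replicate 3, and ETV5 was not (-0.21, adjusted p = 0.130).

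Among the other large falls were MPP4, TMEM156 and MYEOV. MPP4, a membrane scaffold, held 10.9, 11.8 and 11.9 CPM in siCLOCK and 5.04, 4.86 and 3.62 CPM in melatonin (log2 difference -1.36, SE 0.14, adjusted p = 3.35e-06). TMEM156 (-1.34, adjusted p = 1.02e-04) and MYEOV (-1.32, adjusted p = 2.08e-05) were likewise lower. Against the library labelled siCLOCK replicate 3, MPP4, TMEM156 and MYEOV had -1.40, -1.20 and -1.14. The rule that chose the largest falls required this sign. For these 3 genes the siCLOCK libraries lay inside or close to the control range, and melatonin lay below both groups.

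In a smaller set of genes the treatments lay on opposite sides of control. All 3 melatonin libraries lay above and all 3 siCLOCK libraries below all 3 controls at 48 called genes (0.292% of those tested), and the reverse held at 95 called genes (0.578%). Both treatments are set against the same control libraries here, and these positions are no test of either treatment against control. Melatonin against control also crosses the technical sets, and there melatonin and the set cannot be told apart. Among the genes plotted for this pattern, siCLOCK against control passed for HAS3 alone (adjusted p = 0.0425), a gene whose counts are uncertain, and had an adjusted p from 0.0646 to 0.887 for the others; melatonin against control passed for all but HAS3, NELL2 and USP51. ADGRG1, an adhesion G protein-coupled receptor, stood at 20.7, 22.2 and 18.4 CPM in siCLOCK, 13.8 to 17.4 CPM in control and 7.38, 6.56 and 6.39 CPM in melatonin (log2 difference -1.59, SE 0.11, adjusted p = 1.07e-07). COL17A1, a collagen of hemidesmosomes, stood at 6.44, 5.21 and 5.67 CPM in siCLOCK, 4.19 to 5.08 CPM in control and 2.08, 1.45 and 1.76 CPM in melatonin (-1.72, SE 0.17, adjusted p = 3.01e-06). CALB2, the calcium-binding protein calretinin, stood at 180, 157 and 132 CPM in siCLOCK, 125 to 132 CPM in control and 63.6, 70.4 and 68.7 CPM in melatonin (-1.21, SE 0.09, adjusted p = 1.3e-07), so the library labelled siCLOCK replicate 3 was only just above control. KRT15, a basal keratin, showed the same order, at 77.8, 62.8 and 60.03 CPM, 54.3 to 57.1 CPM and 29.3 to 31.9 CPM (-1.14, adjusted p = 2.56e-07).

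A receptor gene and a channel gene were part of the same set. VIPR1, a receptor for vasoactive intestinal peptide, stood at 9.58, 7.74 and 8.13 CPM in siCLOCK, 5.89 to 6.14 CPM in control and 3.47, 4.18 and 3.84 CPM in melatonin (log2 difference -1.14, SE 0.13, adjusted p = 1.29e-05). KCNJ2, an inward rectifier potassium channel, stood at 15.1, 12.1 and 13.0 CPM, 8.07 to 10.7 CPM and 6.50 to 6.56 CPM (-1.04, SE 0.12, adjusted p = 1.68e-05). SPOCD1 had -1.33 (adjusted p = 2.2e-05). HAS3, a hyaluronan synthase, had -0.92 (adjusted p = 4.87e-05). It overlaps CHTF8, and its strand-specific value was -0.04 (adjusted p = 0.837). Strands cannot be separated in these counts, so the strand-specific value can hold CHTF8 reads. It does not decide the level of HAS3, which stays uncertain. Against the library labelled siCLOCK replicate 3 the 8 genes plotted in this direction had values from -1.70 for COL17A1 to -0.76 for HAS3. The rule that chose them placed every siCLOCK library above control and melatonin below it, so these signs were fixed.

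LIF, a cytokine of the IL6 family, and ITGA10, a collagen-binding integrin subunit, stood above control in siCLOCK and not in melatonin. LIF stood at 66.3, 69.2 and 59.1 CPM in siCLOCK, 47.2 to 52.2 CPM in control and 39.3, 36.5 and 38.1 CPM in melatonin (log2 difference -0.77, SE 0.08, adjusted p = 2.94e-06). ITGA10 stood at 69.5, 77.6 and 67.6 CPM in siCLOCK, 44.8 to 49.2 CPM in control and 44.8, 44.2 and 46.8 CPM in melatonin (-0.66, SE 0.07, adjusted p = 7.85e-06). LIF thus differed on both sides of control, whereas the ITGA10 difference came with a melatonin level inside or just below the control range. Both were called against the library labelled siCLOCK replicate 3 (-0.64 and -0.58). Of 12 cytokine and NF-kB target genes LIF and the chemokine CCL2 (-0.57, adjusted p = 0.00361) fell and none rose; CCL2 did not pass against that library (-0.54, adjusted p = 0.0614). Of 13 integrin genes ITGA10, ITGA5 (-0.49), ITGA6 (-0.43) and ITGA4 (-0.42) fell, and ITGA3 (0.36) and ITGA1 (0.41) rose; all but ITGA1 (0.38, adjusted p = 0.0852) were called again against that library.

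**Figure D4:**
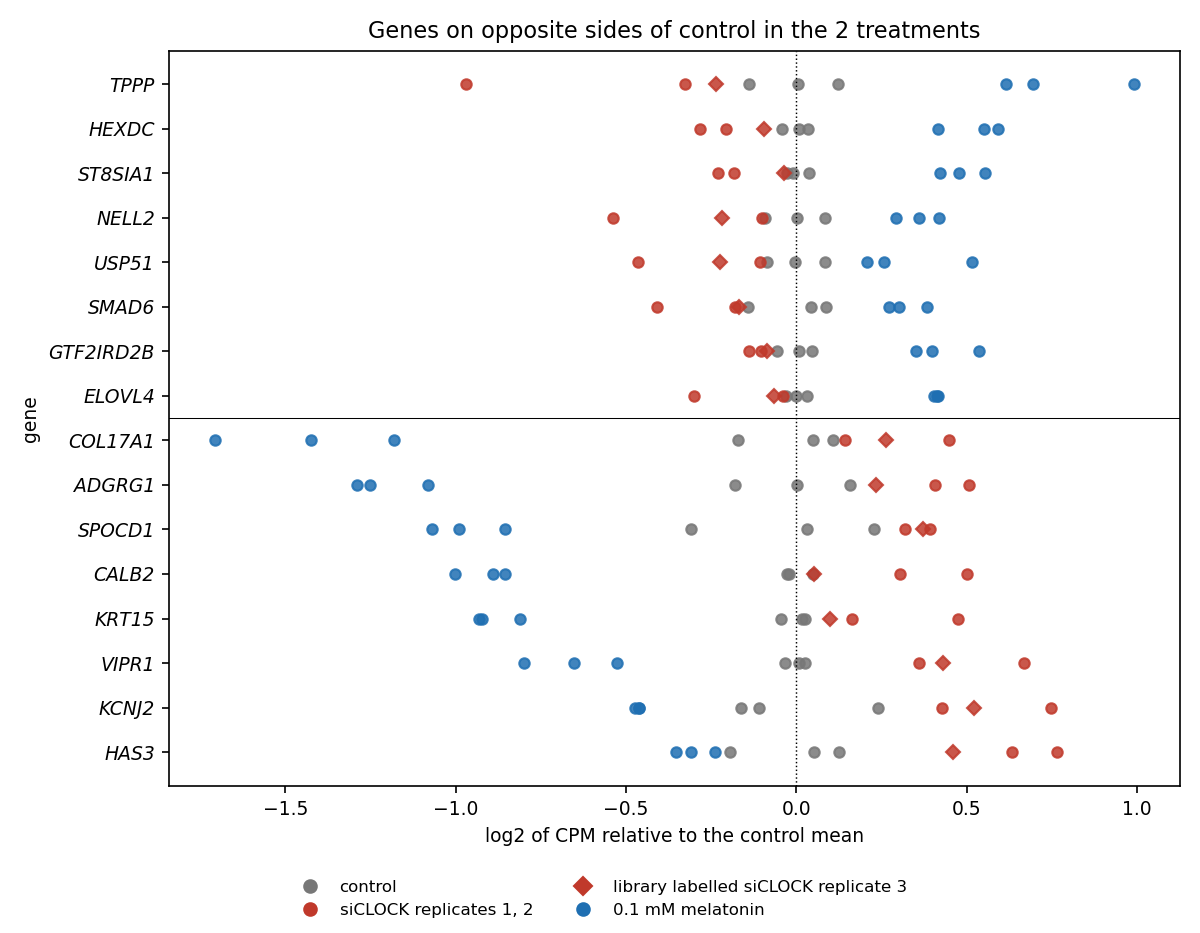
log2 of CPM relative to the control mean (horizontal axis) for the 8 genes per direction with the largest difference among those whose treatments lie on opposite sides of all 3 controls, 1 point per library; the diamond is the library labelled siCLOCK replicate 3. By the rule that chose them, melatonin lies to the right of control and siCLOCK to the left in the upper 8 genes, and the reverse in the lower 8; several siCLOCK points lie close to control.

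The genes above control in melatonin and below it in siCLOCK had smaller differences. Besides TPPP they included HEXDC, a hexosaminidase, at 9.63, 10.2 and 10.97 CPM in siCLOCK, 11.4 to 12.01 CPM in control and 15.6, 17.7 and 17.2 CPM in melatonin (log2 difference 0.72, SE 0.09, adjusted p = 4.33e-05). ST8SIA1, the synthase of ganglioside GD3, followed at 6.55, 6.34 and 7.24 CPM, 7.29 to 7.62 CPM and 9.96, 10.9 and 10.3 CPM (0.63, adjusted p = 4.94e-04). ELOVL4, an elongase of very long fatty acids, stood at 15.0, 17.9 and 17.6 CPM, 18.0 to 18.8 CPM and 24.4 to 24.6 CPM (0.54, adjusted p = 3.07e-04). Against control, melatonin had 0.52, 0.49 and 0.41 and siCLOCK -0.19, -0.15 and -0.13 for these 3 genes; the melatonin values passed and the siCLOCK values did not (adjusted p = 0.644, 0.808 and 0.774). NELL2 (0.63), USP51, a histone deubiquitinase (0.58), SMAD6 (0.56) and GTF2IRD2B (0.54), which has a near-identical copy, completed the 8. The rule that chose these 8 placed every siCLOCK library below control and melatonin above it, which fixed their direction. Against the library labelled siCLOCK replicate 3, TPPP, HEXDC, ST8SIA1 and ELOVL4 were called, while NELL2, USP51, SMAD6 and GTF2IRD2B did not pass (adjusted p from 0.0596 to 0.142).

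Part of the matrix genes were lower in melatonin than in siCLOCK. Of 22 measured matrix and matrix remodelling genes 8 were lower and none higher (median log2 difference -0.23), and 3 were lower against the library labelled siCLOCK replicate 3 (LAMB3, SPARC and the uncertain HAS3). The medians against control were -0.06 in melatonin and 0.19 in siCLOCK. LAMB3, a laminin 332 chain, held 92.6, 87.2 and 73.8 CPM in siCLOCK and 47.2, 50.5 and 49.3 CPM in melatonin (-0.79, SE 0.08, adjusted p = 3.16e-06), against 78.4 to 84.6 CPM in control. For LAMB3 melatonin thus lay below control. The membrane protease MMP14 (-0.46), the urokinase PLAU (-0.29) and the matrix protein SPARC (-0.74) were also lower.

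Of 12 TGF-beta ligands, receptors and targets 7 fell in melatonin against siCLOCK and none rose (median -0.31), and 3 fell against the library labelled siCLOCK replicate 3. PMEPA1, a TGF-beta-induced feedback inhibitor, held 169, 166 and 153 CPM in siCLOCK and 97.7, 95.2 and 94.5 CPM in melatonin (-0.77, SE 0.08, adjusted p = 2.94e-06). TGFBI, a secreted matrix protein, held 23.2, 26.1 and 23.9 CPM against 12.7, 13.5 and 12.3 CPM (-0.92, SE 0.14, adjusted p = 2.11e-04), and LTBP2, which binds microfibrils, 138, 163 and 147 CPM against 110, 114 and 109 CPM (-0.43, adjusted p = 2.41e-04). These 3 did not overlap between groups and were the ones called against that library. TGFBR2, the type 2 receptor, held 59.8, 55.3 and 46.6 CPM in siCLOCK against 43.6, 43.5 and 44.8 CPM (-0.30, adjusted p = 0.0189) but had -0.09 (adjusted p = 0.676) against the library labelled siCLOCK replicate 3.

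Clock genes other than CLOCK gave 3 calls, and none of them held against the library labelled siCLOCK replicate 3. NR1D2 (GRCh38 chromosome 3) stood at 12.8, 25.7 and 30.9 CPM in siCLOCK and 33.9, 33.2 and 33.5 CPM in melatonin (log2 difference 0.53, SE 0.18, adjusted p = 0.0478; 0.12 against that library, adjusted p = 0.792). CRY1 stood at 52.6, 32.9 and 31.7 CPM in siCLOCK and 25.2, 26.5 and 25.4 CPM in melatonin (-0.60, SE 0.14, adjusted p = 0.00535; -0.30, adjusted p = 0.311). In both genes siCLOCK replicate 1 lay farthest from melatonin, as it did for CLOCK. ARNTL stood at 31.4, 28.0 and 29.3 CPM against 26.5, 23.7 and 24.0 CPM (-0.26, SE 0.08, adjusted p = 0.0311; -0.25, adjusted p = 0.201) and lost its call with strand-specific counts (-0.30, adjusted p = 0.0557). Among the activators, NPAS2, a CLOCK paralog, held 25.7 to 27.9 CPM in siCLOCK and 27.5 to 29.5 CPM in melatonin against 18.8 to 21.5 CPM in control, so both treatments lay above control and did not pass against each other (0.09, adjusted p = 0.502). ARNTL2 (-0.06), RORA (0.17) and RORB (0.14) did not pass.

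Of 10 clock repressors NR1D2 was higher and CRY1 lower. PER2 stood at 5.73, 3.06 and 4.67 CPM in siCLOCK and 2.96, 3.20 and 3.04 CPM in melatonin, and its difference of -0.55 did not pass (adjusted p = 0.0605). PER1 (0.10), PER3 (-0.20), CRY2 (-0.06), NR1D1 (-0.24), BHLHE40 (-0.25), BHLHE41 (-0.08) and CIART (0.0013) did not pass either. The output factors DBP (-0.17), TEF (0.14) and NFIL3 (0.02) did not pass, and HLF, with 3 to 7 counts per library, was not tested. None of 8 clock kinases and ubiquitin ligases passed, among them CSNK1D (0.03), CSNK1E (-0.09), GSK3A (-0.12), GSK3B (0.19), FBXL21 (0.23), BTRC (0.18) and FBXW11 (0.13). The E-box CACGTG occurs in 4 of the 10 repressor promoters (40%), against 1156 of 11565 of all tested genes matched (10%). It occurs in 86 of 882 promoters of genes higher in melatonin (9.75%) and in 140 of 1262 of genes lower (11.1%). The lysosome and autophagy list holds it in 7 of 14 promoters matched (50%), so the element is not particular to the repressors.

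Melatonin's own receptors had too few counts for a difference to be detectable at this depth. MTNR1A had 0 to 4 counts and MTNR1B 0 to 1 count per library, and GPR50, a related orphan receptor, 0 to 2. Of 12 genes of melatonin reception, synthesis and breakdown only NQO2, a quinone reductase that binds melatonin, and TPH1, which starts serotonin synthesis, were tested. NQO2 held 92.6 to 98.5 CPM in siCLOCK and 100 to 105 CPM in melatonin and did not pass (0.09, adjusted p = 0.359), nor did TPH1 at or below 1.01 CPM (0.67, adjusted p = 0.232). CYP1A2, the main liver enzyme of melatonin breakdown, had at most 1 count, and DDC, which makes serotonin, had none. ASMT and ASMTL each have a matching copy on the X and Y chromosomes, and reads that fit both copies may not have been counted, so no level is given for them.

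In amino acid supply the list's median lay below control in both treatments, slightly farther in melatonin. The summed CPM of the list, relative to the library total alone, did not separate the treatments. It was 2016, 1977 and 2134 in siCLOCK and 2058, 2092 and 2092 in melatonin. Of 32 measured genes in the list of ATF4 targets and amino acid supply, 8 were lower in melatonin than in siCLOCK, 3 higher and 21 not called. The median was -0.15, and the medians against control were -0.53 in melatonin and -0.41 in siCLOCK. SLC7A5, the large neutral amino acid transporter, stood at 140 to 184 CPM in control, 134, 102 and 117 CPM in siCLOCK and 67.0, 79.8 and 76.8 CPM in melatonin (log2 difference -0.66, SE 0.10, adjusted p = 2.6e-04). SLC7A1, the cationic amino acid transporter (-0.40), and STC2, a secreted stress hormone (-0.58), were lower too, and these 3 were also called against the library labelled siCLOCK replicate 3. ATF4 itself held 246, 258 and 237 CPM in siCLOCK and 193, 212 and 215 CPM in melatonin (-0.25, adjusted p = 0.0257). PHGDH, the first enzyme of serine synthesis, had -0.22 (adjusted p = 0.0383), with 91.2 to 91.9 CPM in siCLOCK and 76.0 to 80.7 CPM in melatonin. Neither ATF4 nor PHGDH was called against the library labelled siCLOCK replicate 3, where the list's median was -0.19. CHAC1, SLC7A11, ASNS and TRIB3, classic ATF4 targets, did not pass. SLC38A2 (0.25), CTH (0.34) and NUPR1 (1.25, at or below 1.39 CPM) were higher, but none of the 3 passed against that library (adjusted p from 0.108 to 0.361). Of 20 cytosolic tRNA synthetase genes 5 fell and none rose, led by LARS (-0.37) and KARS (-0.36), and LARS alone was called against that library.

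Most measured glycolytic and hypoxia-inducible genes were lower in melatonin. Of 19 12 fell and none rose (median -0.34), and 5 fell against the library labelled siCLOCK replicate 3 (median -0.28). PGAM1, a glycolytic mutase, held 367, 319 and 306 CPM in siCLOCK and 240, 241 and 255 CPM in melatonin (-0.43, SE 0.07, adjusted p = 2.83e-04), and PDK1, which restrains pyruvate oxidation, 42.2, 45.3 and 50.1 CPM against 31.5, 33.5 and 32.0 CPM (-0.51, adjusted p = 4.67e-04). The groups did not overlap for either gene, and siCLOCK lay near or above control. SREBF1, the regulator of fatty acid synthesis, held 566, 694 and 607 CPM against 391, 404 and 401 CPM (-0.64, SE 0.07, adjusted p = 6.14e-06) and was the 1 gene called of 8 in that list, also against the library labelled siCLOCK replicate 3 (-0.61). Of 15 cholesterol genes 3 fell, FDPS (-0.45) and SREBF2 (-0.20) among them; FDPS alone was called again against that library (-0.34, adjusted p = 0.0288).

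Some genes of the lysosome and of the unfolded protein response in the endoplasmic reticulum were higher in melatonin. Of 21 lysosome and autophagy genes 10 rose and none fell (median 0.15), and 4 rose against the library labelled siCLOCK replicate 3 (median 0.18). NEU1, the lysosomal sialidase, held 35.8, 40.1 and 35.0 CPM in siCLOCK, 27.1 to 32.0 CPM in control and 54.2, 62.5 and 62.4 CPM in melatonin (0.69, SE 0.08, adjusted p = 2.08e-05), so both treatments lay above control. GAA (0.37) and SQSTM1 (0.27) were also called against that library. Of 19 unfolded protein response genes 7 rose and none fell (median 0.20), and 3 rose against it. HSPA5, the chaperone BiP, held 693, 765 and 692 CPM in siCLOCK and 912, 908 and 915 CPM in melatonin (0.35, SE 0.06, adjusted p = 6.39e-04). SEL1L (0.34) and SYVN1 (0.34) of the degradation complex followed, but did not pass against that library (adjusted p = 0.0595 and 0.0849), whereas HSPA5 did.

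Other lists split or lost their calls against the library labelled siCLOCK replicate 3. Most calls over all genes were lost in that comparison, which has a larger median SE, so a lost call is not particular to these lists. Of 17 MYC and ribosome biogenesis genes 6 fell and 1 rose; MYC stood at 201, 131 and 125 CPM in siCLOCK and 111, 118 and 121 CPM in melatonin (-0.39, adjusted p = 0.0315; -0.10 against that library, adjusted p = 0.737), and only MXD4, a MAX partner that opposes MYC, was called again (0.57, and 0.71 against that library). Of 18 NRF2 and antioxidant genes 5 rose, led by TXNRD1 (0.45) and GCLC (0.30), and none against that library. Of 22 nuclear-encoded respiratory chain genes 5 fell, led by ATP5MC1 (-0.45) and SDHA (-0.27), and none against it. Of 11 heat shock genes 4 fell, led by HSP90AA1 (-0.32), the 1 called against it. In the interferon list of 16, IFIT2 (0.57) and STAT2 (0.31) rose and OAS3 (-0.62) and IFI6 (-0.50, adjusted p = 0.0635 with strand-specific counts) fell, and only OAS3 was called against it. Of 13 epithelial and mesenchymal genes VIM (-0.31), KRT18 (-0.42) and KRT7 (-1.20) fell, and VIM alone was called against it (-0.30, adjusted p = 0.0403). Among 16 apoptosis regulators CASP9 rose (0.32, adjusted p = 0.110 with strand-specific counts) and among 25 ribosomal protein genes RPL23 rose (0.34), neither of them called against it. None of 11 YAP and TEAD targets was called in either comparison.

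The library labelled siCLOCK replicate 3 stood apart from siCLOCK replicates 1 and 2 at processed pseudogenes, near-identical gene copies and mitochondrial transcripts. The 6 genes with the largest excess in that library, given as a description, were 3 processed pseudogenes and 3 genes with near-identical copies. EEF1A1P6, a processed pseudogene of an elongation factor gene, stood at 11.4 and 11.9 CPM in siCLOCK replicates 1 and 2, 69.9 CPM in the library labelled siCLOCK replicate 3, 70.2 to 76.3 CPM in melatonin and 9.84 to 12.3 CPM in control. EIF3CL, a near-identical copy of EIF3C, stood at 1.68 and 1.72 CPM, 13.7 CPM, 12.5 to 14.3 CPM and 2.01 to 2.60 CPM in the same order. XAGE1A, XAGE1B, RPL7P1 and AC009245.1 followed the same pattern. In these 6 genes the library labelled siCLOCK replicate 3 lay with melatonin and siCLOCK replicates 1 and 2 with control. Against all siCLOCK libraries 81 of 436 processed pseudogenes tested were called, a number near the 17.5% called over all genes. Of these, 71 were higher and 10 lower in melatonin, beside 7.43% and 10.1% over all genes. Against replicates 1 and 2, 163 were higher and 9 lower, beside 10.2% and 12.9% over all genes. The median log2 difference of processed pseudogenes was 0.30 against all siCLOCK libraries and 0.48 against replicates 1 and 2. It was -0.03 against the library labelled siCLOCK replicate 3.

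At mitochondrial transcripts the same library was low. MT-ATP8 stood at 8.11 and 10.3 CPM in siCLOCK replicates 1 and 2, 2.41 CPM in the one labelled replicate 3 and 1.95 to 2.18 CPM in melatonin; its difference of -1.71 (adjusted p = 0.00225) against all 3 became -0.19 (adjusted p = 0.766) against that library. MT-ND6, encoded on the other mitochondrial strand, stood at 297 and 427 CPM, 121 CPM and 99.6 to 138 CPM (-1.28, adjusted p = 0.00394, and -0.06, adjusted p = 0.908). MT-ND1 (-0.48, adjusted p = 0.116 with strand-specific counts), MT-ND2 (-0.52) and MT-ATP6 (-0.44) completed the 5 called of 15 mitochondrially encoded genes, none of them called against that library. CCDC34 and IFI6 also lay with melatonin there, at 14.0 and 14.3 CPM against 22.8 to 25.1 and 22.7 to 26.1 CPM in the other siCLOCK libraries, and PSENEN and GAGE2A were lower there than in siCLOCK replicates 1 and 2. The part of the technical set in these values was not tested.

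**Figure D5:**
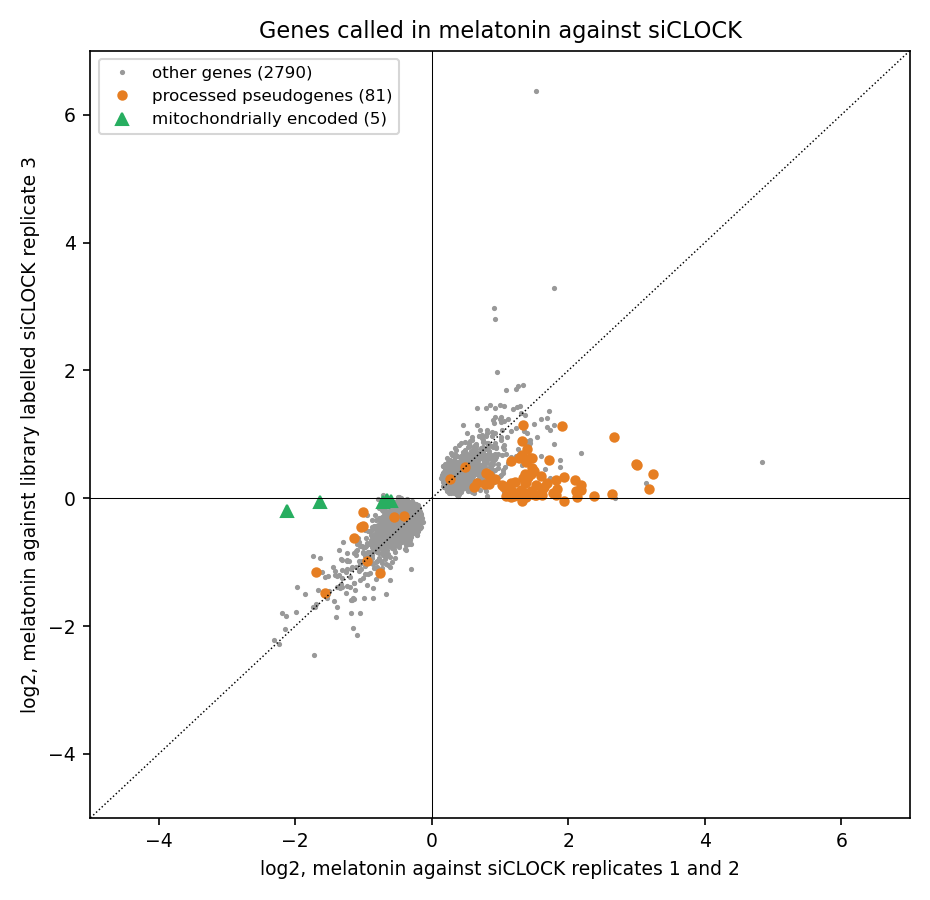
The 2876 genes called in melatonin against all siCLOCK libraries, with the log2 difference against siCLOCK replicates 1 and 2 (horizontal) and against the library labelled siCLOCK replicate 3 (vertical); the dotted line marks equal values, and both axes use the same melatonin libraries. Most grey points lie near the dotted line, while the 81 processed pseudogenes and 5 mitochondrially encoded genes lie towards the horizontal line at 0.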

How the data were processed

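The authors deposited, per sample, counts of reads per gene, regardless of strand and for each strand; per the submitters' processing notes these come from STAR 2.7.9a on GRCh38 (hg38). All 58721 identifiers matched GENCODE 29, a release inferred from them, which gave symbols and coordinates. From the counts regardless of strand, filterByExpr, TMM scaling and edgeR 4.0.16 (R 4.3.3) gave one quasi-likelihood fit to all 9 libraries (coefficient of variation 0.0682), with two-sided tests adjusted over 16441 genes by Benjamini-Hochberg at 0.05. Summary lines of the files (unmapped, multimapping, no-feature and ambiguous reads) stayed out of library sizes. An SE is the log2 difference over the square root of F. Comparison with the library labelled siCLOCK replicate 3 used a set term, with the spread pooled over groups; the comparison with replicates 1 and 2 left that library out. On simulated counts for this comparison (16238 genes kept), the procedure found 95% of the 1.5-fold and 100% of the 2-fold changes, and 9 of 204 calls were false. The simulation changed only genes of at least 5 CPM. It held no technical set and no siCLOCK library that stood apart from the others. Its false calls therefore do not measure how many calls in the real data come with the set.

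Named genes were 12 protein-coding genes per direction ranked by log2 difference (called, at least 5 CPM, groups not overlapping, same sign against the library labelled siCLOCK replicate 3), 8 per direction on opposite sides of control, 6 per direction standing apart in that library, every clock and melatonin gene listed, and from each remaining list the 2 to 4 genes of lowest p. Further list members are named as called or not called, after their values were seen. The genes and lists were chosen with earlier results of these data known. Counts for each strand were near equal in every library (ratio 1.01 to 1.05), so strands cannot be separated in these counts. Strand-specific counts thus hold only part of a gene's reads and can take in reads of an overlapping gene. A call lost or kept with them does not decide which gene such reads came from. Overlapping genes and near-identical copies are uncertain. Alternatives were DESeq2 1.42.0, limma-voom (limma 3.58.1), other scalings and filters, only 6 libraries, a replicate block, protein-coding genes, strand-specific counts, the set term, each library left out and an adjusted p under 0.01. Promoters came from RefSeq (GRCh38.p14), matched by symbol or identifier for 11565 of the 16441 genes. Replicates differed by more than sampling noise in every group. Some members of the gene lists are counted in their list but not reported here by name.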

Additional observations from a re-analysis of the deposited data

How the results depend on the processing

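The counts of 1221 higher and 1655 lower genes stayed within 1.5 times under other scalings, DESeq2 (973 and 1568), limma-voom (1294 and 1598), other filters, only 6 libraries, protein-coding genes and strand-specific counts (827 and 1317). They became 328 and 633 with the technical set term, which leaves 1 siCLOCK library in the comparison, and 464 and 873 at an adjusted p under 0.01. Leaving out 1 library gave 619 to 1699 higher and 1031 to 2159 lower genes. The difference in CLOCK, 0.4143, lost its call with DESeq2 (0.4128, adjusted p = 0.170), the 5 CPM filter (0.4182, adjusted p = 0.0540), only 6 libraries (0.414, adjusted p = 0.0831) and the set term (0.08641, adjusted p = 0.801), and ran from 0.2063 to 0.6109 with 1 library left out (adjusted p from 7.2e-04 to 0.126, without siCLOCK replicates 3 and 1). Every library left out except control replicate 3 and siCLOCK replicate 3 ended that call. IFI6 reversed with the set term, from -0.50 to 0.05097 (adjusted p = 0.896); the cause was not tested. With strand-specific counts 13 of the 131 named genes called and measured there lost their call, ARNTL among them. The technical set term, which leaves 1 siCLOCK library, ended far more of the named calls than strand-specific counts did.

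Replicate numbers did not pair the samples: same-numbered melatonin and siCLOCK libraries deviated from their group means with correlations of -0.047, 0.063 and -0.029 over genes. With the number as a replicate block, 1162 genes were higher and 1550 lower, and CLOCK had 0.4365 (adjusted p = 0.0240). With 15384539 to 19192962 counts per library, genes with a few counts, such as the melatonin receptors, could not be tested.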
